A study of Mus musculus with 24 samples.

Results

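The 39 genes described here code for adhesion molecules of the neuronal surface. They comprise 2 neurexins, 3 neuroligins, 4 members of the Lrrtm family, 3 contactin-associated proteins, 6 contactins, 13 cadherins and 8 protocadherins. They were taken by symbol from the 54235 features of the deposited count matrices, and all 39 were present. The series profiled dissociated single cells from primary motor cortex and dorsal striatum of mice that had learned a forelimb reaching task. Every mouse carried the Ai9 reporter and received 4-hydroxytamoxifen (4-OHT), which activates CreER in recently active neurons. Motor cortex came from Fos-CreER::Ai9 mice and striatum from Arc-CreER::Ai9 mice, so brain region and driver line cannot be told apart. Training lasted 2 days in the early group and 8 days in the late group before labelling, and the control group was given 4-OHT but never trained. Slices were cut 3 days later, and each library joined the same hemisphere of 2 mice. All cells were captured without a sort for the reporter. There were 2 pools for each of 3 stages in each of 2 regions, 12 in all, and the pool of 2 mice was the unit of every test. Mouse ages are not given in the sources used here.

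Neurexins sit on the presynaptic membrane and bind neuroligins and Lrrtm proteins across the cleft. Contactins are immunoglobulin proteins held to the membrane by a lipid anchor. They pair in cis with contactin-associated proteins next to nodes of Ranvier and at synapses. Cadherins bind the same or a related cadherin on the facing cell, and most of them link to actin through catenins. Protocadherins are cadherin relatives with a different intracellular part. Many of these genes differ between neuron types, which has long made them candidates for a code by which neurons recognise partners.

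In 23 analysed libraries (1 hemisphere library of the first striatal control pool was not analysed here) 103715 cells passed the filters. Libraries held 469 to 7087 such cells with a median of 2048 to 5725 UMIs (unique molecular identifiers, 1 per captured transcript), and 5103 presumed doublets were left out. After doublet removal 47985 cortical and 50627 striatal cells were clustered without the 39 genes and without 82 other adhesion genes. Clusters were named from marker genes, 4.55% and 4.85% of cells stayed unnamed, and each type name below means "like" that type. Libraries of replicate 1 of the late and control pools in both regions shared 1.31 barcodes per 1000000 barcode pairs with each other, the other libraries shared 0.261, and libraries across these sets shared 0.024. The labels name kit versions v2 and v3 without saying which library used which, so these sets of 4 and 8 pools are called the smaller and the larger barcode class. Over all 276 library pairs, 3053 shared barcodes were counted. In all neuron and oligodendrocyte precursor classes looked at, most members were lower in the smaller class, and in astrocytes fewer were. In D1 spiny neurons, 26 of 37 members at 1 CPM or more were lower in both pools of the smaller class than in all 4 of the larger, against 37.6% of all genes at that level, and 2 were higher, against 24.3% (Nlgn2 and Lrrtm1). Members lower in that way numbered 27 of 39 in cortical glutamatergic neurons (34.6% of genes) and 22 of 37 in striatal oligodendrocyte precursors (29.6%). In striatal astrocytes 10 of 30 members were lower (29.1% of genes) and 3 higher (19.6%). In cortical astrocytes 3 of 27 members were lower, against 13% of genes. The smaller class holds no early pool and is 1 batch of the labels in each region, so class and batch cannot be told apart. Comparisons of cell types were therefore made within pools.

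Levels are given as UMIs of a gene per 1000000 UMIs of the summed cells of 1 type in 1 pool (CPM). Reads come from the 3′ ends of transcripts and were not divided by length, so levels of different genes are compared only loosely. The members are long genes. Their spans in the annotation ran from 4.538 kb for Pcdh8 to 2245 kb for Cntnap2, and 29 of the 39 exceeded 100 kb. The median was 220.4 kb against 3.359 kb for all annotated genes, which were not limited to protein-coding ones. Exons of 14 members overlap a gene on the opposite strand and those of 2 (Nlgn3 and Cdh12) a gene on the same strand. Whether counting used strand is not given in the sources used here, so for these genes some UMIs could belong to the neighbour.

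Promoters are shown for 3 members that were highest together in layer 2/3 neurons among the 6 projection neuron types compared below. They are Pcdh8, an activity-regulated protocadherin, and the cadherins Cdh7 and Cdh22. The 250 bases upstream of a RefSeq start in build GRCm38.p6 are written 5′ to 3′ on the gene's strand, and capitals mark TATAAA or CCAAT on either strand (CCAAT reads ATTGG on the other strand).
Pcdh8, chr14:79771313-79771562, minus strand: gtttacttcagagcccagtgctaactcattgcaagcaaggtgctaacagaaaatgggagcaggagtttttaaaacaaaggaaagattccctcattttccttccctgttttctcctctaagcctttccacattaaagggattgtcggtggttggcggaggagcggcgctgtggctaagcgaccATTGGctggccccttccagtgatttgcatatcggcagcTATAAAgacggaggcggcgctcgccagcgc
Cdh7, chr1:109982650-109982899, plus strand: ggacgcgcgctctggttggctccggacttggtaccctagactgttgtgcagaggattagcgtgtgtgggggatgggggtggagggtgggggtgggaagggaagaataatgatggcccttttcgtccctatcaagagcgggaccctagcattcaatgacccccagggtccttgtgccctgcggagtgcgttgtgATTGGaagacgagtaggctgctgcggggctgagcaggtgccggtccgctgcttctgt
Cdh22, chr2:165234738-165234987, minus strand: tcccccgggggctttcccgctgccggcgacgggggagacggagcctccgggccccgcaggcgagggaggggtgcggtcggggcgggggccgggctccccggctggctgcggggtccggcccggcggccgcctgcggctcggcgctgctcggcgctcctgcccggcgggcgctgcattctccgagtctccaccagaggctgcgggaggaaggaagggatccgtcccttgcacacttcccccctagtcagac

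The 3 windows differ in composition. G and C make up 51.2% of the Pcdh8 window, 60.8% of that of Cdh7 (1 of 3 listed starts) and 77.6% of that of Cdh22, and they hold 11, 13 and 30 CG pairs. Among 32851 promoter windows of this length the median was 52.4% and 6 pairs, and among the 42 windows of the 30 members with an entry 51.2% and 7.5 pairs. TATAAA occurred in 12.4% of all windows and in 9.52% of member windows (Cntn1, Lrrtm4, Pcdh15 and Pcdh8). CCAAT occurred in 33.8% and 45.2%. The E-box form CAGATG, also searched on both strands, occurred in 14.4% of all windows and in 1 member window, of another Cdh7 start than the one printed. These counts describe letters and not bound sites.

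**Figure D1:**
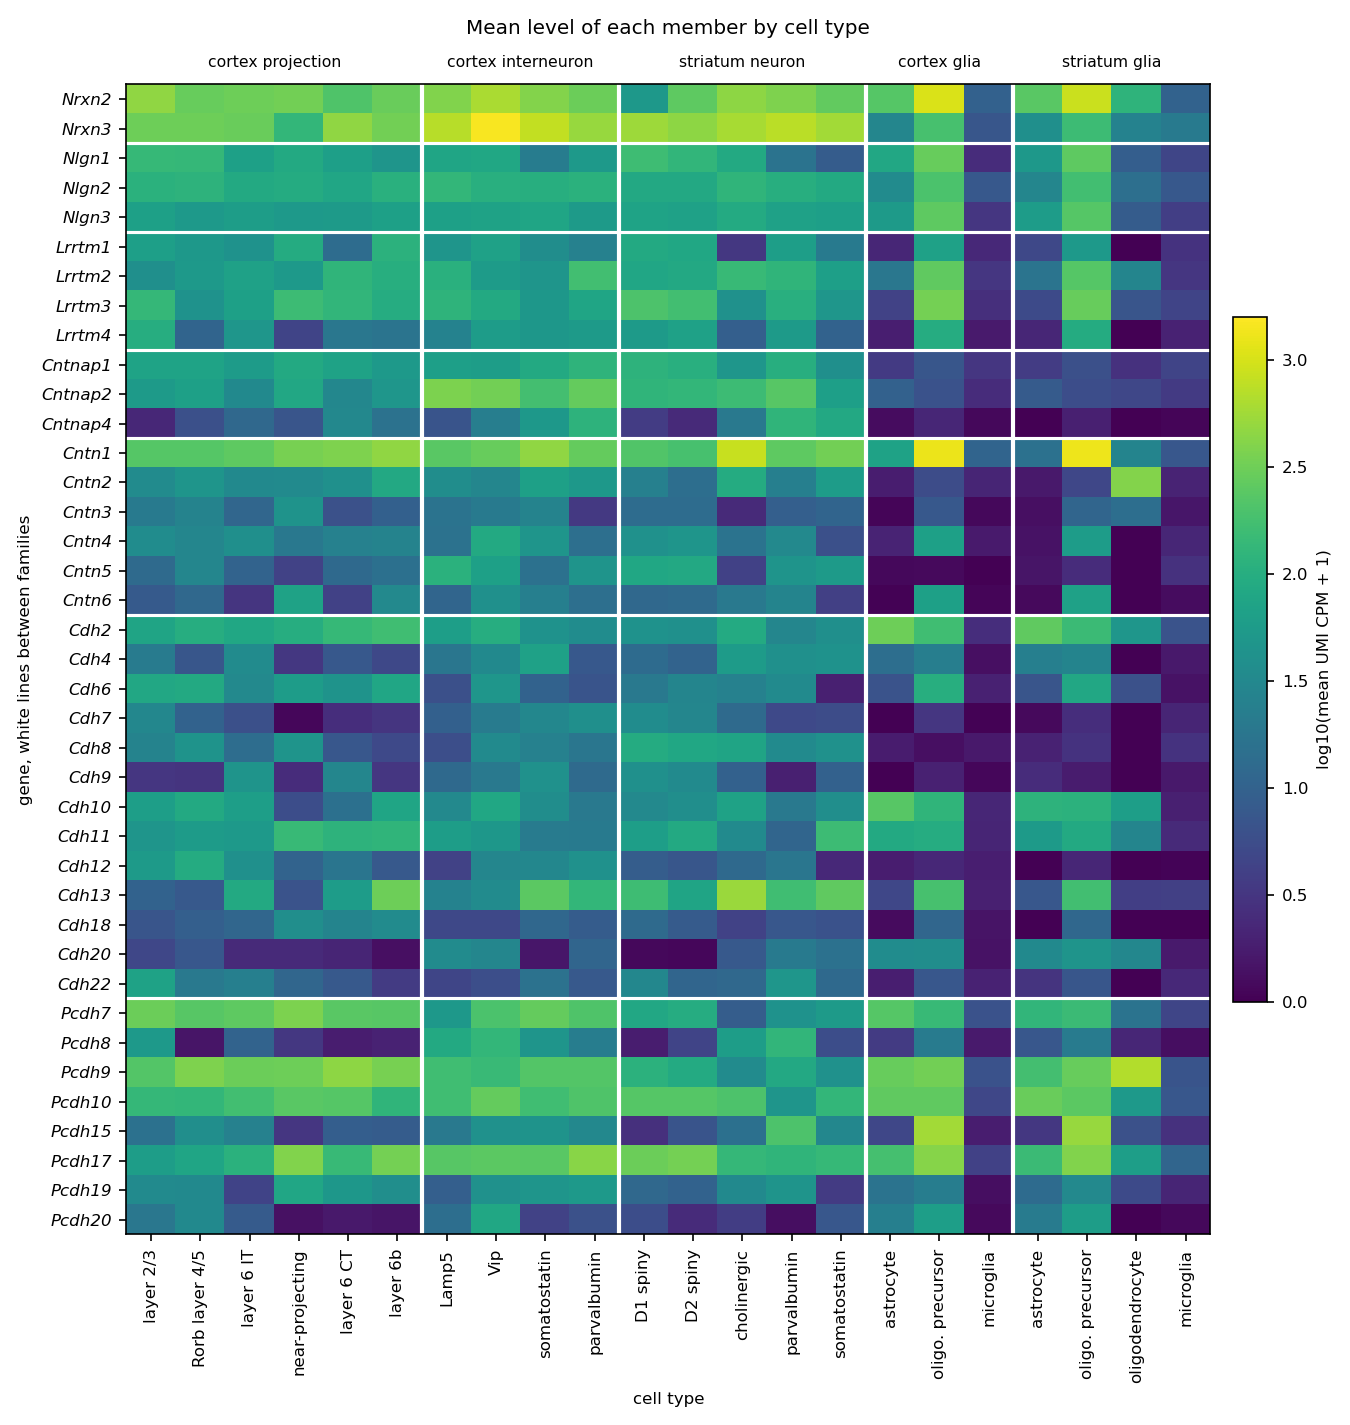
Mean level of each member over 6 pools in 10 neuron types of motor cortex, 5 of dorsal striatum and the glia of both regions, as log10 of UMI CPM + 1 (colour), with rows grouped by family. Nrxn3 and Cntn1 are bright in nearly all neurons, the microglia columns are dark throughout, and many cadherin rows are bright in few columns.

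Averaged over all broad classes of both regions, glia and vessels included, Nrxn2, Nlgn2, Lrrtm2, Cntnap2, Cntn1, Cdh2 and Pcdh9 had the highest mean level of their families. Members differed in how far their mean levels spread over the 17 named neuron types, of which the heat map shows 15 and leaves out eccentric spiny neurons and Fezf2 layer 5 neurons. Nlgn2, which organises inhibitory synapses, ranged only from 78.0 CPM in layer 6 corticothalamic neurons to 129 CPM in Lamp5 interneurons of cortex. Nrxn3 ranged from 130 CPM in near-projecting neurons to 1463 CPM in Vip interneurons. Cdh13, a cadherin with a lipid anchor in place of an intracellular part, ranged from 5.66 CPM in near-projecting neurons to 527 CPM in striatal cholinergic interneurons. Pcdh15, known from the tip links of hair cells, ranged from 0.683 CPM in Fezf2 layer 5 neurons (73 cells) to 201 CPM in striatal parvalbumin interneurons.

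D1 spiny neurons (8886 cells) form the direct pathway of the striatum and D2 spiny neurons (10294 cells) the indirect pathway. They differed most clearly in a neurexin. Nrxn2 was lower in D1 than in D2 neurons, Cdh13, Cdh22 and Pcdh20 were higher in D1, and Pcdh8 and Pcdh15 were lower. Of 38 members tested (Cdh20 was too low), 31 were called at an adjusted p under 0.05, 18 higher and 13 lower in D1, where 27.5% of all genes were called, 12.4% higher and 15.1% lower. Tests used edgeR's quasi-likelihood F test on summed UMIs with Benjamini-Hochberg adjustment over all genes, as in all comparisons below. The pool was a block here and in the other comparisons of types and of hemispheres, but not in those of stages and regions. The median log2 difference of the members was 0.06, against -0.01 for all genes. The level in the 6 pools did not overlap between the types for 6 members, 15.4% of the 39, against 3.5% of genes at 1 CPM or more.

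Nrxn2 stood at 33.3, 51.8 and 66.7 CPM in D1 neurons (lowest, median and highest of 6 pools) and at 203, 257 and 294 CPM in D2 neurons. Every D2 pool lay above every D1 pool, and the log2 difference was -2.36 (SE 0.04, adjusted p = 1.22e-44). D1 neurons had the lowest mean of the 17 neuron types, 49.2 CPM, and the next lowest, layer 6 corticothalamic neurons, had 207 CPM. The gene is known for presynaptic calcium channel function as well as adhesion. Nrxn3 went the other way by a small amount. It stood at 348, 587 and 602 CPM in D1 and at 297, 494 and 542 CPM in D2 neurons, a log2 difference of 0.18 (SE 0.02, adjusted p = 3.49e-09). The pools of both types overlapped.

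The postsynaptic partners differed little. Nlgn2, with a log2 difference of 0.00 (SE 0.04, adjusted p = 0.983), and Nlgn3, at 0.05 (SE 0.04, adjusted p = 0.415), did not pass the test, and Nlgn1 was higher in D1 by 0.31 (SE 0.03, adjusted p = 3.23e-12). In the Lrrtm family Lrrtm2 and Lrrtm4 were lower in D1, by -0.17 and -0.34, Lrrtm3 was higher by 0.19, and Lrrtm1, at 0.07, did not pass. Among contactins and their partners, Cntn2 was higher in D1 by 0.80 (SE 0.07, adjusted p = 2.4e-13) in 6 of 6 pools, with 14.8 to 31.2 CPM against 7.42 to 17.6 CPM. The ranges overlapped, the lowest D1 pool (late replicate 1) lying below the highest D2 pool. Cntnap2 and Cntn1 changed by only -0.10 and 0.17.

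Of the 12 cadherins tested, 8 were higher and 3 lower in D1 neurons, where 12.4% and 15.1% of all genes were. Cdh13 stood at 139, 161 and 190.3 CPM in D1 and at 66.1, 72.6 and 83.2 CPM in D2 neurons, a log2 difference of 1.08 (SE 0.03, adjusted p = 3.92e-31). Cdh22 stood at 25.7, 29.7 and 31.3 CPM against 9.33, 9.80 and 12.1 CPM, a difference of 1.52 (SE 0.07, adjusted p = 2.33e-23). The D1 values of both genes were above all D2 values. Cdh11 was lower in D1 by -0.55 (SE 0.04, adjusted p = 1.05e-16), in 6 of 6 pools and with overlapping ranges. Cdh2, or N-cadherin, differed by 0.02 (SE 0.05, adjusted p = 0.846).

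Protocadherins supplied the other non-overlapping members, all at low levels. Pcdh8 stood at 0.45, 0.790 and 1.13 CPM in D1 and at 1.75, 3.59 and 5.73 CPM in D2 neurons (log2 difference -2.12, SE 0.23, adjusted p = 5.58e-11). Pcdh15 stood at 0.978, 1.79 and 2.56 CPM against 3.95, 5.96 and 7.20 CPM (-1.65, SE 0.18, adjusted p = 6.52e-11). Pcdh20 stood at 3.27, 4.70 and 7.13 CPM against 0.295, 1.34 and 2.61 CPM (1.52, SE 0.18, adjusted p = 2.07e-09). Microglia, whose levels stand for free RNA here, held up to 0.888 CPM of Pcdh8, 8.97 CPM of Pcdh15 and 1.12 CPM of Pcdh20 in the striatal pools, so the range of Pcdh8 in D1, that of Pcdh20 in D2 and both ranges of Pcdh15 overlap that background. The Pcdh15 and Pcdh20 maxima in microglia were those of late replicate 1. Well-expressed protocadherins moved little, with Pcdh9 at 0.28 and Pcdh17 at -0.22. The count of called members depended on the fit, and the share of all genes called is given here only for the main fit. Without the pool block 8 members were called, DESeq2 called 24, and pools of the larger class alone gave 27.

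**Figure D2:**
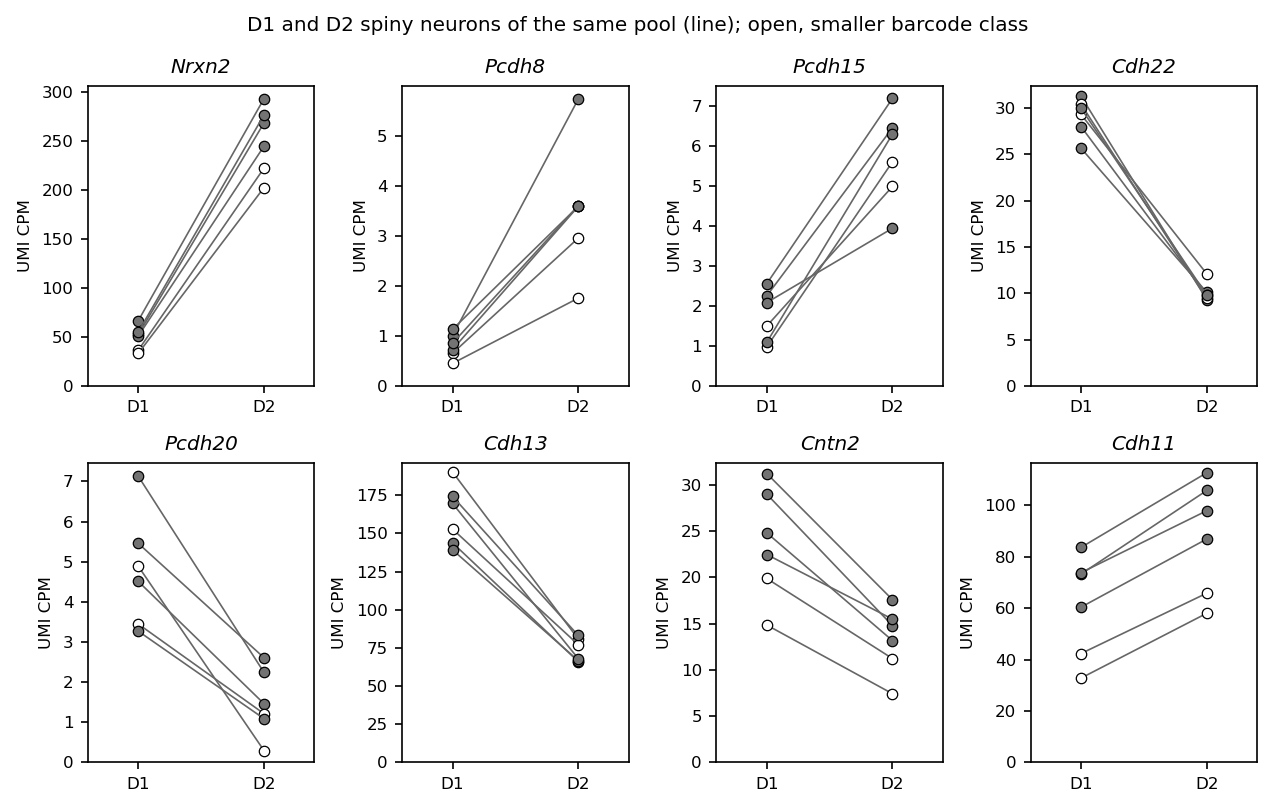
UMI CPM of 8 members in D1 and D2 spiny neurons of each striatal pool, with a line joining the types of 1 pool and open symbols for the smaller barcode class. In the Nrxn2, Pcdh8, Pcdh15, Cdh22, Pcdh20 and Cdh13 panels the pools of the types do not overlap, and in the Cntn2 and Cdh11 panels, chosen after their values were seen, all lines slope the same way.

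Of 82 other adhesion genes, 77 were tested between D1 and D2 neurons and 48 were called, 29 higher and 19 lower in D1, against 27.5% of all genes (12.4% and 15.1%). The largest differences were those of Cbln4, a secreted ligand that binds neurexins (log2 difference -3.77, SE 0.40), Dscam (2.83, SE 0.22), Cbln2 (2.12, SE 0.39) and the scaffold gene Shank1 (1.37, SE 0.10). Cbln4 itself reached only 3.54 CPM in the highest D2 pool.

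Projection neurons of motor cortex were compared as 6 types. They were layer 2/3 neurons (3391 cells), Rorb neurons of layers 4 and 5 (3754), layer 6 intratelencephalic neurons (2259), near-projecting neurons (1100), layer 6 corticothalamic neurons (4755) and layer 6b neurons (925). Fezf2 layer 5 neurons (73 cells) were too few to compare, so "elsewhere" and "other types" below do not cover them. Each type had members that were higher or lower there than in every other type in every pool. All 39 members differed between types, where 88.3% of all genes did. Against the mean of the other 5 types, on the log scale, 37 members were called in layer 2/3 neurons (63.3% of all genes), 34 in Rorb neurons (57% of genes), 32 in layer 6 intratelencephalic neurons (45.7%), 32 in near-projecting neurons (57.8%), 31 in corticothalamic neurons (50%) and 33 in layer 6b neurons (53.1%). In layer 2/3 neurons 24 were higher (31.8% of genes) and 13 lower (31.5%), and in Rorb neurons 17 were higher (29.3%) and 17 lower (27.8%). In layer 6 intratelencephalic neurons 14 were higher (26% of genes) and 18 lower (19.6%), and in near-projecting neurons 14 were higher (28.8%) and 18 lower (28.9%). In corticothalamic neurons 14 were higher (29.7% of genes) and 17 lower (20.3%), and in layer 6b neurons 19 were higher (28.5%) and 14 lower (24.7%).

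Layer 2/3 neurons were set apart by Pcdh8, Cdh7, Cdh22 and Nrxn2, of which the first 3 have their promoters printed above. Pcdh8 stood at 32.8, 55.0 and 69.8 CPM over the 6 pools and at no more than 15.9 CPM in any pool of another type, a log2 difference from the mean of the others of 4.86 (SE 0.10, adjusted p = 1.1e-49). Cdh7 stood at 18.3, 29.8 and 38.0 CPM, with a highest value of 10.8 CPM elsewhere (3.86, SE 0.11). Cdh22 stood at 47.3, 70.1 and 89.95 CPM, with a highest value of 26.1 CPM elsewhere (2.73, SE 0.08). Nrxn2 stood at 430.4, 463 and 535 CPM, with a highest value of 388 CPM elsewhere (0.70, SE 0.04). The receptor gene Lrrtm4 was also higher there, at 59.8, 111 and 123 CPM (2.83, SE 0.06), but its lowest pool fell below the highest layer 6 intratelencephalic pool, at 76.5 CPM. All 3 neuroligins were called higher in layer 2/3 neurons. The cadherins split, 8 higher and 5 lower. In the few Fezf2 layer 5 neurons, outside these tests, Cdh22 averaged 120.2 CPM (SD 40.2, n = 6), Pcdh8 37.7 CPM (SD 25.2) and Cdh7 37.4 CPM (SD 26.9), so Cdh22 and Cdh7 were at least as high there as in layer 2/3 neurons in the mean.

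Rorb neurons were set apart by Pcdh20, Pcdh15, Cntn5 and Lrrtm3. Pcdh20 stood at 24.6, 32.6 and 39.4 CPM (log2 difference 4.22, SE 0.13) and at 10.2 to 22.2 CPM in layer 2/3 neurons, the next highest. Near-projecting, corticothalamic and layer 6b neurons had at most 1.69 CPM. Pcdh15 stood at 30.7, 37.5 and 43.2 CPM (2.04, SE 0.09), just above the 20.4 to 30.3 CPM of layer 6 intratelencephalic neurons. Cntn5 stood at 24.6, 28.9 and 30.3 CPM (1.68, SE 0.10) and at no more than 16.9 CPM elsewhere. Lrrtm3 was lower than in the other types, at 33.5, 43.3 and 50.0 CPM (-1.42, SE 0.05). Cdh12 was highest in Rorb neurons, at 58.0, 96.0 and 120 CPM (2.21, SE 0.07), but overlapped layer 2/3 neurons.

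Layer 6 intratelencephalic neurons nearly lacked Pcdh19, a gene whose human counterpart is linked to epilepsy. It stood at 0.897, 3.49 and 5.65 CPM there and at 21.6 CPM or more in every pool of the other 5 types (log2 difference -3.73, SE 0.16, adjusted p = 6.5e-32). Cdh6 was lower there too, at 23.7, 31.7 and 35.0 CPM (-1.05, SE 0.07), against 40.1 CPM or more elsewhere. Cdh9 marked this type together with corticothalamic neurons. It stood at 29.5, 48.1 and 54.0 CPM in the former and at 16.4, 29.7 and 33.6 CPM in the latter, and no pool of the other 4 compared types exceeded 4.14 CPM. Against the mean of the other types Cdh9 was higher by 3.81 (SE 0.10) and by 3.00 (SE 0.10). Corticothalamic neurons had their own low member in Lrrtm1, with 9.29, 12.96 and 14.3 CPM against 37.1 CPM or more in all other pools (-2.39, SE 0.07, adjusted p = 2.7e-39). They also had the most Cntnap4 of the 6 types, at 17.6, 28.8 and 45.4 CPM (2.37, SE 0.09), with overlap.

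Near-projecting neurons had high Cntn6 and Pcdh19 and low Cdh10, Pcdh15 and Nrxn3. Cntn6 stood at 43.8, 73.3 and 84.8 CPM (log2 difference 3.28, SE 0.12, adjusted p = 5.6e-36), above the 22.1 to 34.5 CPM of layer 6b neurons. Pcdh19 stood at 64.6, 74.6 and 95.4 CPM (1.69, SE 0.11). Cdh10 stood at 1.15, 4.79 and 9.09 CPM (-3.56, SE 0.18), and its next lowest type, corticothalamic neurons, at 9.87, 13.5 and 20.8 CPM. Pcdh15 stood at 1.12, 2.04 and 3.46 CPM (-2.71, SE 0.24). Nrxn3 stood at 108, 128 and 155 CPM (-1.47, SE 0.06), against 248 CPM or more in all other pools. For Cdh7 and Pcdh20 most near-projecting pools held no UMI, so their levels are given without a fold.

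Layer 6b neurons were set apart by Cdh13. Its level was 256, 302 and 365 CPM, and the highest value elsewhere was 103 CPM in layer 6 intratelencephalic neurons (log2 difference 4.13, SE 0.07, adjusted p = 1.1e-56). Rorb, layer 2/3 and near-projecting neurons held 3.16 to 13.2 CPM. Cntn2, known from juxtaparanodes of myelinated axons, stood at 77.9, 81.5 and 103 CPM (1.28, SE 0.07). Cntn1, its relative at the paranode, stood at 417, 460 and 517 CPM (0.79, SE 0.04), and Cdh2 at 155, 166 and 176 CPM (0.85, SE 0.05). Cdh22 was lower, at 0, 2.97 and 4.45 CPM (-2.69, SE 0.23). Levels of Cdh13, Cntn2, Cntn1 and Cdh2 in layer 6b pools lay above, and levels of Cdh22 below, all other pools.

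**Figure D3:**
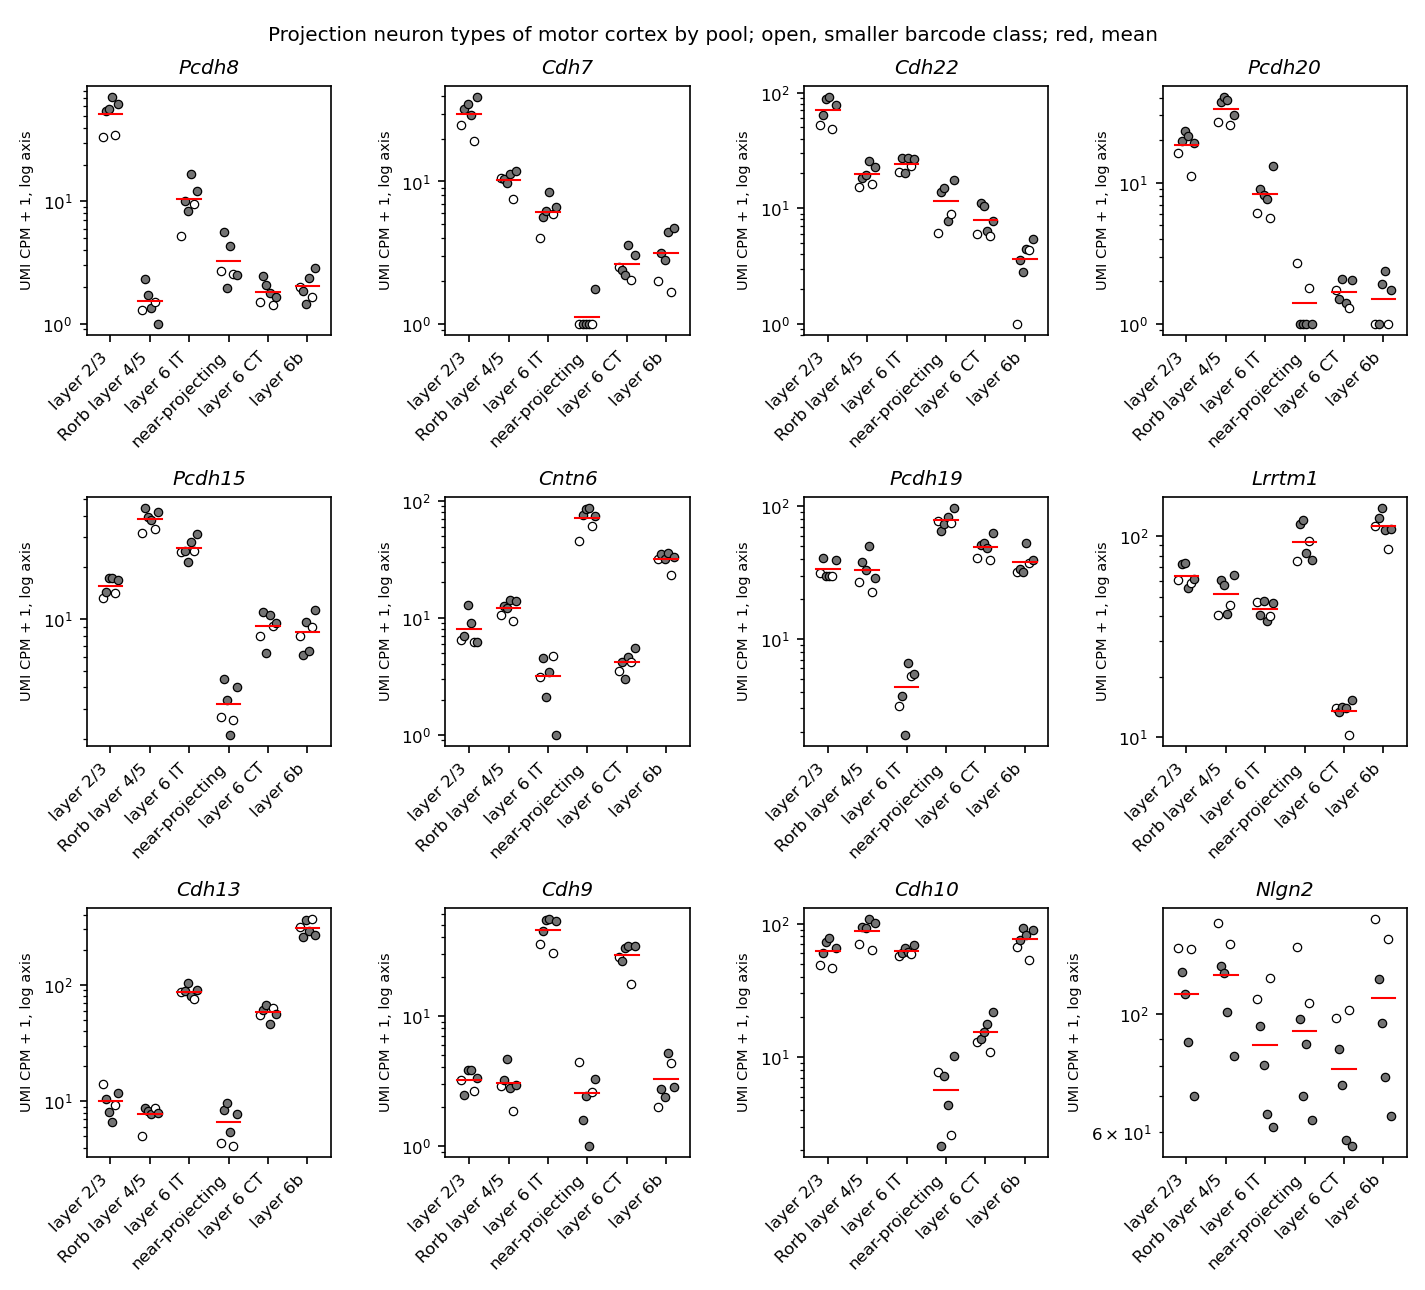
UMI CPM + 1 on a log axis for 12 members in 6 projection neuron types of motor cortex, 1 symbol per pool (open, smaller barcode class) and the mean as a red line. Pcdh8, Cdh7 and Cdh22 are highest in layer 2/3, Pcdh20 in Rorb, Cntn6 in near-projecting and Cdh13 in layer 6b neurons, while the Nlgn2 pools of all types overlap.

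Combinations of members separated the types. For each of 15 pairs of types, 12 to 29 of the 39 members (30.8% to 74.4%) had pools that did not overlap, against 12.6% to 25.8% of genes at 1 CPM or more. The largest share was between layer 2/3 and corticothalamic neurons (29 members) and the smallest between corticothalamic and layer 6b neurons (12 members, 10 of them higher in layer 6b). Pcdh15 alone separated 14 of the 15 pairs, and 37 sets of 2 members, for example Cdh10 with Pcdh15, separated all of them. Of genes at 1 CPM or more, 0.327% separated at least 14 pairs, and of all sets of 2 such genes 0.368% separated all 15, against 4.99% of sets of 2 members. These sets were found by trying all pairs of members and are a description with no test. Nlgn2, Nlgn3 and Pcdh10 separated no pair. Pools of the larger class alone gave 195 called member and type contrasts in place of 199. Among the other adhesion genes 79 were tested and all differed between types, against 88.3% of all genes. The largest single differences were Fat4 in layer 2/3 neurons (3.04, SE 0.29), the cerebellin genes Cbln4 in Rorb neurons (3.88, SE 0.10) and Cbln1 in layer 6 intratelencephalic neurons (4.76, SE 0.16), Ntng1 in corticothalamic neurons (-3.42, SE 0.26), Ntrk3 in near-projecting neurons (-5.12, SE 0.14) and Sdk2 in layer 6b neurons (2.94, SE 0.07).

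Interneurons of motor cortex were compared as Lamp5 (1361 cells), Vip (1970), somatostatin (486) and parvalbumin (224) types. The levels below are from all 6 pools, and the tests used 5, since control replicate 1 had only 19 parvalbumin cells. All 39 members differed between the types, where 68.3% of genes did. Against the mean of the other 3 types 34 members were called in Lamp5 neurons (9 higher, 25 lower) against 45.5% of genes (23.3% higher, 22.2% lower), 32 in Vip neurons (24 higher, 8 lower) against 44.5% (24.7% and 19.8%), 31 in somatostatin neurons (20 higher, 11 lower) against 34.5% (20% and 14.6%), and 25 in parvalbumin neurons (10 higher, 15 lower) against 37.9% (18.3% and 19.6%). The median log2 difference of the members was -0.38 in Lamp5 and 0.59 in Vip neurons, against 0.02 and 0.03 for all genes.

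Cntnap4, a contactin-associated protein found at inhibitory synapses, was graded over the types. It stood at 2.88, 5.999 and 9.20 CPM in Lamp5, 11.8, 21.4 and 36.2 CPM in Vip, 32.2, 48.1 and 72.0 CPM in somatostatin and 79.4, 127 and 140 CPM in parvalbumin neurons. In the 5 tested pools it was the only member that separated all 6 pairs of types, as 0.396% of genes did. With control replicate 1 included, the highest Vip pool exceeded the lowest somatostatin pool. The log2 difference was 2.56 (SE 0.15, adjusted p = 4e-23) in parvalbumin neurons and -3.10 (SE 0.16, adjusted p = 2.1e-25) in Lamp5 neurons. Its family member Cntnap2, which clusters potassium channels along axons, was lower in somatostatin neurons (-0.71) than in the others.

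Lamp5 neurons also had high Cntn5, at 95.8, 108 and 127 CPM (log2 difference 1.66, SE 0.09), and low Cdh12, Pcdh19, Cdh8 and Pcdh7. Cdh12 stood at 0, 3.73 and 5.95 CPM (-3.17, SE 0.23). Pcdh7 stood at 40.3, 51.6 and 60.8 CPM against 125 CPM or more in all pools of the other types (-2.12, SE 0.07, adjusted p = 2.8e-35). In all, 10 of 13 cadherins and 6 of 8 protocadherins were lower in Lamp5 neurons, where 22.2% of all genes were lower.

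Vip neurons had high Pcdh20, Cdh6, Cdh2 and Nrxn2. Pcdh20 stood at 44.8, 87.2 and 109 CPM, and no pool of another type exceeded 19.6 CPM (log2 difference 3.64, SE 0.13, adjusted p = 9.1e-35). Cdh6 stood at 33.5, 49.1 and 58.7 CPM (2.89, SE 0.17). Cdh2 stood at 82.7, 95.3 and 112 CPM (1.12, SE 0.08), and Nrxn2 at 505, 596 and 762 CPM (0.80, SE 0.05). Nrxn3 was called higher as well, at 1070.0, 1517 and 1725 CPM (1.16, SE 0.05), the highest neuronal level of any member.

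Somatostatin neurons had high Cdh13, Cdh4, Cdh22, Cdh9 and Cntn1. Cdh13 stood at 207, 246 and 290 CPM against at most 157 CPM in parvalbumin neurons and 37.9 CPM in Lamp5 and Vip neurons (log2 difference 2.35, SE 0.08, adjusted p = 1.9e-34). Cdh4, or R-cadherin, stood at 52.9, 61.5 and 84.6 CPM (2.13, SE 0.14). Cntn1 stood at 432, 471 and 506 CPM (0.90, SE 0.06). Cdh20 was nearly absent, with no UMI in most pools and 1.80 CPM in the highest, against 18.7 to 45.7 CPM in Lamp5 neurons. Nlgn1, the neuroligin of excitatory synapses, was lower, at 10.6, 22.3 and 31.6 CPM (-1.64, SE 0.15), and Cntn5 was lower at 7.32, 14.8 and 21.6 CPM (-2.23, SE 0.17). Parvalbumin neurons had, beside high Cntnap4, low Cntn3 at 0, 2.39 and 5.58 CPM (-2.85, SE 0.40).

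**Figure D4:**
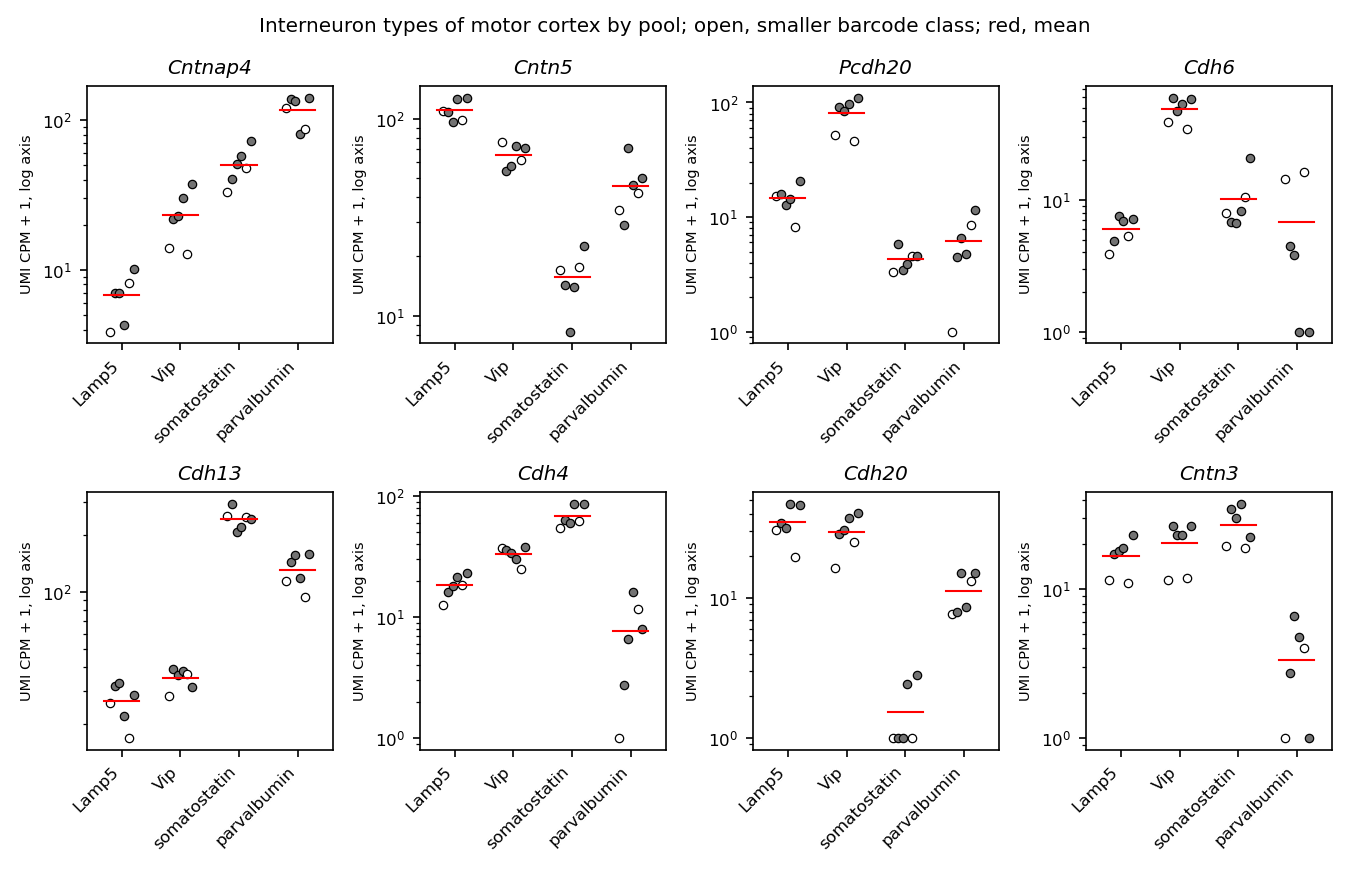
UMI CPM + 1 on a log axis for 8 members in 4 interneuron types of motor cortex, 1 symbol per pool (open, smaller barcode class; the first of the 6 pools was not in the tests) and the mean as a red line. Cntnap4 increases from Lamp5 to parvalbumin neurons, Pcdh20 and Cdh6 are highest in Vip neurons, and Cdh20 is near 0 in somatostatin neurons.

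Between pairs of interneuron types 14 to 22 of the 39 members (35.9% to 56.4%) did not overlap, against 11.8% to 17.6% of genes. Nlgn2, Cdh7, Pcdh10 and Pcdh17 separated no pair. With the larger class alone 118 member and type contrasts were called in place of 122. Of 79 other adhesion genes tested, 73 differed between types, against 68.3% of all genes, with the largest differences including Cbln2 in Vip neurons (6.81, SE 0.13), Cbln4 in somatostatin neurons (3.76, SE 0.28), Il1rap in Lamp5 neurons (2.93, SE 0.14) and Ntng1 in parvalbumin neurons (2.68, SE 0.26). Cbln2 stood at 256, 319 and 367 CPM in Vip neurons.

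Glia were compared with the mean of the neuron classes of their region, glutamatergic and GABAergic neurons in cortex and spiny neurons and GABAergic interneurons in striatum. The striatal fit used the 4 pools with at least 20 oligodendrocytes, and cortical oligodendrocytes were too few to test. The 39 genes fell into 3 patterns. They were nearly absent from microglia, few were high in astrocytes, and many were high in oligodendrocyte precursors. In 15 of the 39 the mean level of a non-neuronal type exceeded that of all 17 neuron types, and in 8 of these the type was the precursor (Nrxn2, Nlgn1, Nlgn2, Nlgn3, Lrrtm2, Lrrtm3, Cntn1 and Pcdh15). Of all genes at a mean of 1 CPM or more in any of these types, 69.3% were highest in a non-neuronal type and 4.58% in the precursor. The shares of the members were 38.5% and 20.5%. Non-neuronal types here include the class named neuroblast or progenitor, with clusters led by genes such as Dcx and Sox11. None of the 15 members was highest in that class. A gene could enter through a single type where it was high, so the 69.3% is not a share of widely expressed genes.

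Microglia held a mean of 0 to 19.8 CPM of each member in either region, with a median of 1.21 CPM. All 39 members were called lower than in neurons in cortex (86.3% of genes called, 47.9% lower), and 38 of 39 in striatum (75.6% called, 40.1% lower), where Cdh20 did not pass. The higher striatal values came largely from late replicate 1, which held, for example, 70.6 CPM of Nrxn3 against a median of 11.1 CPM over the pools.

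Oligodendrocyte precursors of cortex (5419 cells) had 21 members higher and 15 lower than neurons (77.9% of genes called, 37.4% higher and 40.5% lower), and those of striatum (2738 cells) 19 higher and 13 lower (64.7% called, 30.9% higher and 33.8% lower). Pcdh15 was foremost. It stood at 387, 608 and 663 CPM in cortical precursors, against 16.3, 19.4 and 20.9 CPM in glutamatergic neurons, a log2 difference from neurons of 4.22 (SE 0.09, adjusted p = 1.5e-38). In striatal precursors it stood at 291, 573 and 653 CPM (3.62, SE 0.16). Cntn1 stood at 893, 1272 and 1623 CPM in cortex (1.79, SE 0.09) and 812, 1483 and 1553 CPM in striatum (2.10, SE 0.15), the highest level of any member in precursors. Nrxn2 stood at 855, 1019 and 1301 CPM in cortex (1.17, SE 0.09) and at 483, 930.3 and 1071 CPM in striatum (1.56, SE 0.17).

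Neurexin ligands were high there as well. All 3 neuroligins were higher in precursors of both regions, led in cortex by Nlgn3 at 211, 252 and 304 CPM (1.73, SE 0.07). Lrrtm2, Lrrtm3 and Lrrtm4 were higher in both regions, with Lrrtm3 at 294, 339 and 381 CPM in cortex (1.58, SE 0.08). Cntn6 was higher by 1.71 (SE 0.08) and 2.10 (SE 0.16). Members of the same families were lower, among them 3 of 6 contactins, 5 of 13 cadherins and 3 of 8 protocadherins in cortex, shares that read against the 40.5% of all genes, and all 3 contactin-associated proteins. Cntn5 was at no more than 0.987 CPM in cortical precursors against a median of 66.6 CPM in cortical interneurons. Cntnap1 and Cntnap2, which line axonal domains next to nodes, stood at medians of 6.12 and 4.56 CPM in cortical precursors against 71.4 and 319.1 CPM in cortical interneurons. Neither passed the test against microglia (adjusted p = 0.18 and 0.0693), so no fold against neurons is given for these low levels. Cdh8 had 4 UMIs in all cortical precursors, at most 1.29 CPM in a pool, against a median of 21.9 CPM in interneurons. Compared with microglia 32 members were higher and 1 lower in cortical precursors (78.2% of genes called, 41.2% higher and 37% lower). In striatal precursors 30 were higher, where 65.6% of genes were called (4873 of 14798 higher and 4834 lower).

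Astrocytes expressed few of the members above neurons, 5 in cortex, with 29 lower (77.3% of genes called, 33.5% higher and 43.8% lower), and 7 in striatum, with 28 lower (68.4% called, 32.2% higher and 36.3% lower). N-cadherin had the highest mean level of the members in cortical astrocytes, and Pcdh10 in striatal ones (156.9, 306 and 433 CPM). Cdh2 stood at 227, 306 and 399 CPM in cortical astrocytes (1.67, SE 0.09, adjusted p = 7.4e-22) and at 143, 267 and 339 CPM in striatal ones (2.49, SE 0.18). Cdh10 stood at 192, 234 and 251 CPM in cortex (2.12, SE 0.11) and 77.3, 116 and 149 CPM in striatum (1.79, SE 0.18). Cdh20 stood at 19.8, 33.6 and 52.3 CPM and 16.4, 31.4 and 47.1 CPM (2.03, SE 0.16, and 3.85, SE 0.27), and no D1 or D2 pool exceeded 0.364 CPM. Pcdh10 was called higher in both regions by 0.34 and 0.68. At the other end, no astrocyte pool of cortex held a UMI of Cdh7 or Cdh9. Against microglia 21 members were higher and 0 lower in cortical astrocytes, where 72.1% of genes were called (5554 of 16085 higher and 6046 lower). In striatal astrocytes 18 were higher and 4 lower, where 62.4% of genes were called (4406 of 14798 higher and 4832 lower).

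Oligodendrocytes of striatum (182 cells) had 3 members above neurons and 32 below (42.4% of genes called, 13.5% higher and 28.9% lower). Cntn2 stood at 181, 432 and 633 CPM over the 6 pools (log2 difference 3.62, SE 0.19, adjusted p = 3.3e-18), and striatal precursors held at most 4.70 CPM. Pcdh9 stood at 362, 653 and 1017 CPM (2.83, SE 0.25), its highest level in these data along with the 558 to 1337 CPM of the few cortical oligodendrocytes. Cdh20 was also called, by 3.31 (SE 0.74), with 7.20 to 67.9 CPM. Against microglia 11 members were higher, where 40.8% of genes were called (1908 of 14798 higher and 4126 lower). The larger class alone gave 364 called member and contrast pairs over all glial fits in place of 366, and thinning all profiles to the smallest total of the fit gave 204.

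**Figure D5:**
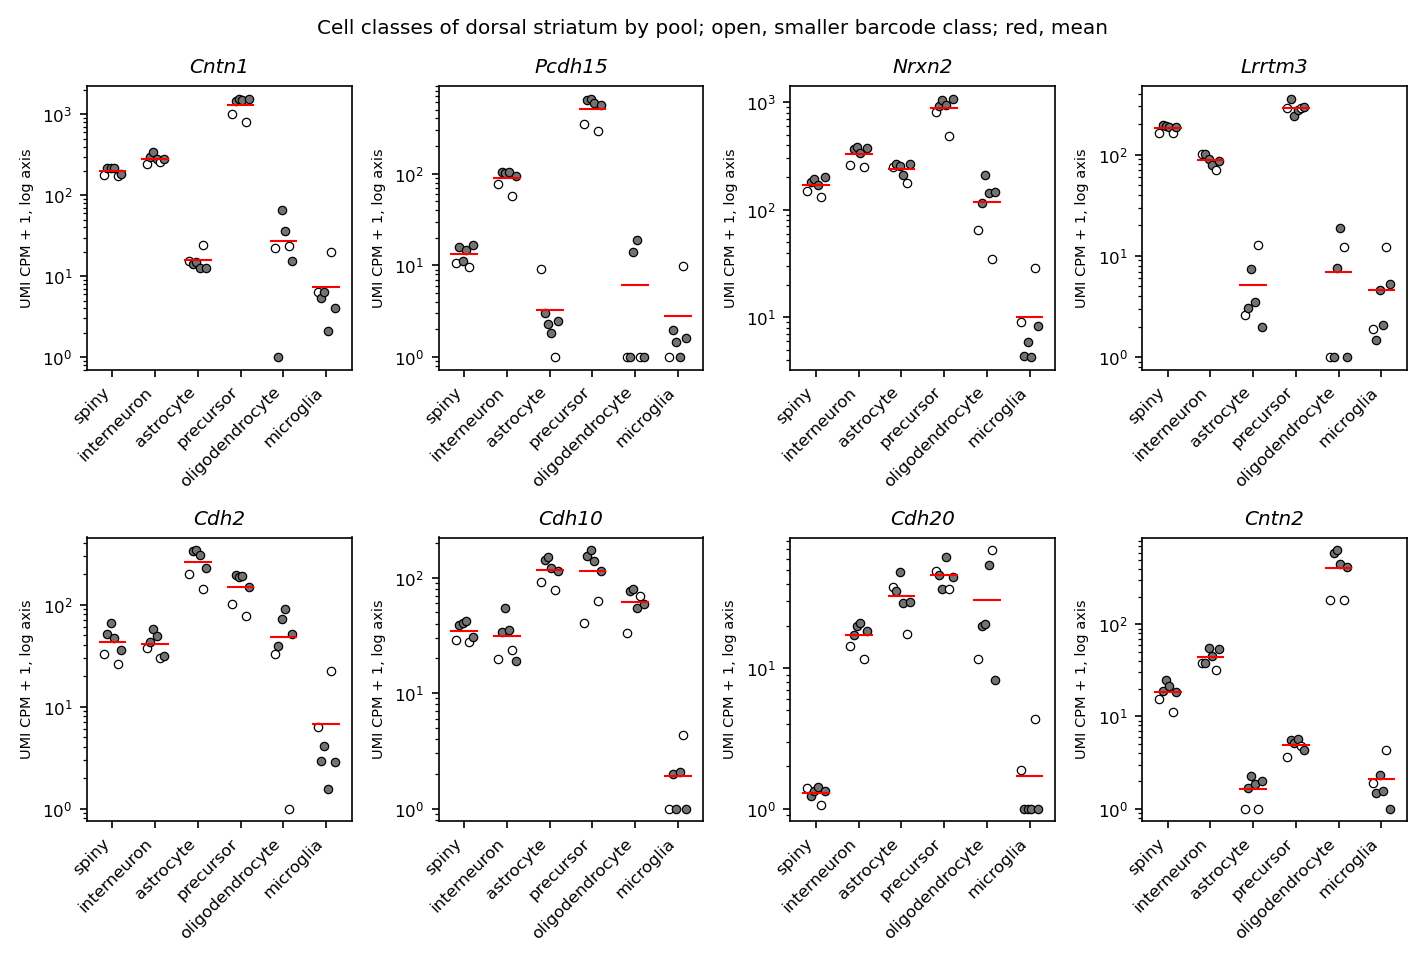
UMI CPM + 1 on a log axis for 8 members in 6 cell classes of dorsal striatum, 1 symbol per pool (open, smaller barcode class) and the mean as a red line. Cntn1, Pcdh15, Nrxn2 and Lrrtm3 are highest in oligodendrocyte precursors, Cdh2 in astrocytes and Cntn2 in oligodendrocytes, and microglia are lowest or near lowest in each panel, with spiny neurons as low for Cdh20.

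The training stages were compared within each class, with stage and barcode class in the fit. Both early pools of each region belong to the larger class. In motor cortex 0 of 525 member and comparison pairs were called (edgeR, smallest adjusted p = 0.793, 15 at an unadjusted p under 0.05, 0 by DESeq2), where the share of all genes called was 0% to 0.364%. In striatum 0 of 816 were called (smallest adjusted p = 0.269, 69 at an unadjusted p under 0.05, 0 by DESeq2), where 0% to 0.943% of genes were. In edgeR the number of all genes at an unadjusted p under 0.05 was lowest in fibroblasts, late against early, in both regions. It was 73 of 2473 in cortex and 86 of 2569 in striatum. The highest numbers were 839 of 17728 in cortical glutamatergic neurons, late against control, and 1549 of 15085 in D2 neurons, late against early. The depth of the stage test was limited. In simulated data 33.3% of genes changed by 2-fold were found between late and control glutamatergic neurons, and 12.2% of those changed by 1.5-fold. In D1 neurons the shares were 60% and 16.3%. The changed genes were drawn from all tested genes and no class difference was simulated, so these shares are not those of the members. Fits with a pool left out called striatal members, 13 without control replicate 1 and the same 13 without late replicate 1. These are 1 comparison and not 2, since the class term then absorbs the remaining pool of the smaller class. Leaving out control replicate 2 gave 9 calls, early replicate 2 gave 7, late replicate 2 gave 4 and early replicate 1 gave 1, and the larger class alone gave 7. In such fits a stage can rest on 1 pool, which is assumed to vary like the pools of the other stages. These calls therefore have no replicate check of their own. The share of all genes called in these fits is not given here, so the counts cannot be read as particular to the members. The labels also give each pool a batch identifier. In each region late replicate 1 shared a batch with control replicate 1, early replicate 1 shared another with control replicate 2, and no early pool shared a batch with a late pool. A fit with batch as a term leaves no residual degrees of freedom, so late against early could not be tested with batch in the fit. Within batches late and early can be set against each other only through 1 control pool each, with no estimate of spread.

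Cdh2 in D2 spiny neurons gave an example of a call that depended on the setting while its size moved less. It stood at 27.5 and 49.4 CPM in the control pools, 63.9 and 43.8 CPM in the early pools and 22.8 and 31.5 CPM in the late pools. Both late pools were below both early pools, and the control pools lay between the lowest late and the highest early pool. The log2 difference of late from early was -0.68 (SE 0.21, adjusted p = 0.37). It was -0.69 (adjusted p = 0.01) with all pools and no filter on low counts. With the larger class alone it was -0.78 (adjusted p = 0.000108), which sets late replicate 2 alone against both early pools and takes its spread from the early pools. Leaving out late replicate 1 or either control pool gives that same comparison. Leaving out early replicate 2 gave -0.92 (adjusted p = 0.023) against 1 early pool. Within a shared batch, late replicate 1 (22.8 CPM) was below control replicate 1 (27.5 CPM), and early replicate 1 (63.9 CPM) was above control replicate 2 (49.4 CPM), each a comparison of 1 pool with 1 pool. D1 neurons ran the same way, at 32.9 and 48.1, 63.3 and 45.1, and 26.4 and 36.3 CPM. They come from the same pools and libraries as the D2 neurons, so they are not an independent observation. Both striatal pools of the smaller class, control replicate 1 and late replicate 1, were the lowest of their stage, and their part in this difference was not tested apart from the class term.

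Hemispheres contralateral and ipsilateral to the trained limb were compared in the 4 trained pools of each region. Of 113 member and class pairs 1 was called. Pcdh17, a protocadherin known from corticobasal ganglia synapses, was lower on the contralateral side in glutamatergic neurons, where 0.142% of genes were called. Its contralateral and ipsilateral levels were 129 and 154 CPM in early replicate 1, 122 and 147 CPM in early replicate 2, 108 and 116 CPM in late replicate 1, and 147 and 178 CPM in late replicate 2. The contralateral value was lower in 4 of 4 pools, though the ranges of both sides overlapped, and the log2 difference was -0.22 (SE 0.04, adjusted p = 0.0105). The call was lost with DESeq2 (adjusted p = 0.485) and without early replicate 1 (0.129) or early replicate 2 (0.062). In D1 and D2 spiny neurons, where 0.0377% and 0.0658% of genes were called, no member passed (edgeR, smallest adjusted p = 0.999). Over the 3 classes 7 pairs had an unadjusted p under 0.05 in edgeR and DESeq2 called 0. Of all genes, 983 of 16195 had such an edgeR p in glutamatergic neurons, 534 of 13272 in D1 and 496 of 13686 in D2 neurons.

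Regions were compared in classes that both contain. In GABAergic interneurons 28 of 39 members were called, 21 higher and 7 lower in cortex, where 33.2% of genes were called (2074 of 13174 higher and 2298 lower). The cortical and striatal classes differ in their mix of types, since Vip and Lamp5 neurons were named only in cortex. Pcdh20 stood at 27.4, 47.9 and 57.4 CPM in cortex and 1.56, 5.41 and 6.75 CPM in striatum (log2 difference 3.15, SE 0.15, adjusted p = 1.8e-11). Cntn4 (1.81, SE 0.14), Nlgn1 (1.63, SE 0.16) and Cntnap2 (1.43, SE 0.08) were higher in cortex, and Cdh22 (-2.36, SE 0.18), Cntnap4 (-1.75, SE 0.11), Cdh13 (-1.61, SE 0.09) and Pcdh15 (-1.52, SE 0.10) were higher in striatum. In astrocytes 7 of 18 tested members were called, where 33.3% of genes were. The astrocyte class differs in make-up too, since 1240 of the 3333 striatal astrocytes form a cluster led by genes that include Gfap, Thbs4 and Igfbp5, with neuroblast or progenitor as its second-best class, and no cortical astrocyte cluster has these among its leading genes. Its part in these values was not tested. Cntn1 stood at 42.6, 65.4 and 108 CPM in cortical and 11.5, 13.5 and 23.4 CPM in striatal astrocytes (2.18, SE 0.20, adjusted p = 2.9e-09). Cdh10 (1.00, SE 0.15), Pcdh7 (0.85, SE 0.16), Pcdh9 (0.75, SE 0.17), Nlgn1 (0.60, SE 0.16) and Cdh11 (0.55, SE 0.18) were also higher in cortex, and Nrxn3 was lower (-0.51, SE 0.19). The Nrxn3 and Cdh11 calls were lost with the larger class alone. In striatal astrocytes neither Cntn1 nor Nrxn3 was called higher than in microglia, whose levels stand for free RNA, so the size of their differences is uncertain. In oligodendrocyte precursors edgeR called 0 of 31 tested members (1.99% of genes), with 6 at an unadjusted p under 0.05. In microglia it called 0 of 8 (1.06% of genes), with 3 at that level. Of all genes, 1304 of 12181 in precursors and 965 of 10234 in microglia had an unadjusted edgeR p under 0.05. Region and driver line cannot be told apart in any of these values.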

How the data were processed

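The authors deposited UMI counts per gene and cell barcode, which were analysed for 23 libraries. The counts of another library were not analysed here, and only its barcodes were used. Per the submitters' processing notes these came from Cell Ranger 3.1.0 with GRCm38 (mm10), while the headers of the matrices name an earlier software version, and the annotation release and use of strand are not given in the sources used here. Cells with at least 500 genes and 1000 UMIs and at most 20% mitochondrial UMIs were kept. Presumed doublets (0.8% per 1000 cells) were left out. Cells were clustered with scanpy 1.11.5 (2000 variable genes, 40 principal components, 20 neighbours, Leiden resolution 1.5) without adhesion genes, and clusters were named from marker lists, with naming thresholds set after clusters were seen. Types rest on other genes of the same cells, so comparisons of types describe them.

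Counts were summed by pool and type (at least 20 cells) and tested in edgeR 4.0.16 (R 4.3.3) on all genes, with the pool as a block between types and hemispheres and with stage or region plus barcode class elsewhere. DESeq2 1.42.0 was an alternative. Standard errors are the log2 difference over the root of F. The tests were checked on simulated counts. Of the calls made there, 3.57% (D1 against D2 neurons) to 8.96% (late against control glutamatergic neurons) were of genes left unchanged. Replicate numbers were given in accession order and pair no pools across stages. The batch identifiers of the labels tie some pools across stages. They also tie early replicate 2 of cortex to that of striatum, and late replicate 2 likewise, while the other pools share no batch across regions. Batch identifiers are not in the fits. Where the pool was a block, p-values rest on how far the difference between types or hemispheres varied from pool to pool. In the stage and region comparisons they rest on the spread between pools of 2 mice. In edgeR the spread of each gene was also moderated by that of all genes.

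Members and lists were chosen with earlier results of these data known. Named members were those called without overlap between pools, up to 12 per comparison, and the highest of each family. In stage, hemisphere and region comparisons they were the called members with the smallest adjusted p, with or without overlap. Others, such as Lrrtm4, Cdh9, Cdh11, Cdh12, Cntn2 between D1 and D2 neurons and Nrxn3, were chosen after their values were seen.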

Additional observations from a re-analysis of the deposited data

Results flagged for a closer look

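A single pool lay far from the rest of its group in 5 groups of pools, and chance alone gives about 1 in 20 of the groups examined. The list held 190 groups, but those with few UMIs were passed over, so 5 of 190 is not a rate. Groups also share pools and are not independent. Cdh22 in D2 spiny neurons was 12.11 CPM in control replicate 1 and 9.33 to 10.12 CPM in the other 5 pools. Cdh6 in layer 6 intratelencephalic neurons was 23.66 CPM in early replicate 2 and 31.17 to 34.98 CPM in the others. Cntnap2 in cortical oligodendrocyte precursors was 12.17 CPM in control replicate 1 and 2.32 to 5.57 CPM in the others. Nrxn3 in cortical microglia was 13.67 CPM in control replicate 1 and 3.56 to 7.21 CPM in the others. Pcdh10 in striatal oligodendrocytes was 86.37 CPM in late replicate 2 and 32.11 to 33.95 CPM in the other 3 tested pools.

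For 3 members glia differed from neurons in opposite directions in every pool of the regions, a contrast between regions that was not tested. The values are mean differences in log2(CPM + 1) within pools. Cdh11 in astrocytes was 0.47 above neurons in cortex (0.01 to 1.21 over 6 pools) and at -0.65 in striatum (-1.75 to -0.27). Pcdh7 in oligodendrocyte precursors was at -0.51 in cortex (-0.75 to -0.34) and 0.79 in striatum (0.51 to 1.03). Pcdh19 in precursors was at -0.75 in cortex (-1.37 to -0.36) and 0.68 in striatum (0.24 to 1.06), where the fit over 4 pools did not call it (0.49, SE 0.23, edgeR adjusted p = 0.0554). The neurons set against the glia differ between regions.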

How the results depend on the processing

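The 208 member and contrast values followed here were all called, and the naming rule picked them for clear differences or small adjusted p. They therefore do not stand for all calls. Of their 2973 recomputed values 2950 gave the same call, 23 lost it and 0 reversed. Counts over all members moved more, and the share of all genes called in the alternative fits is not given here. Between D1 and D2 neurons 31 members were called, and 8 without the pool as a replicate block. Without the replicate block the hemisphere comparison gave 0 calls in place of 1, as did DESeq2 (0). Striatal stage comparisons gave 0 calls, but 4 without a filter on low counts, 7 with the larger barcode class only (added after seeing the data) and 1 with a replicate block on numbers that pair no pools (Cntnap1 in GABAergic interneurons). Glial contrasts fell from 366 to 204 when profiles were thinned to the smallest total, which leaves fewer UMIs. Leaving out each pool in turn gave 28 to 31 calls between D1 and D2 neurons, 189 to 199 between projection types (39 to 39 for any difference), 115 to 122 between interneuron types (38 to 39), 342 to 367 for glia, 33 to 36 between regions, 0 to 1 between hemispheres, 0 to 0 for cortical and 1 to 13 for striatal stages, where a stage can then rest on 1 pool. Without the barcode class in the fit 28 region calls remained in number, against 35. Depth limits members near 1 CPM, where microglial background is of like size. The cause of these changes was not tested.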

Other observations

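Levels in vessels, ependymal cells and committed oligodendrocyte precursors are given as means with SD over 6 pools and without a test. Of the members named, Pcdh19, Cdh6 and Cdh20 had their highest mean levels there. Pcdh19 stood at 136.7 CPM (SD 50.2) in cortical and 148.4 CPM (SD 86.5) in striatal pericytes, and at 58.8 CPM (SD 21.0) and 75.8 CPM (SD 30.4) in endothelium. Striatal pericytes numbered 1110 cells, 8 to 343 per pool, so their means include a pool of few cells. Cdh6 stood at 113.1 CPM (SD 27.8) and 117.2 CPM (SD 45.1) in vascular smooth muscle cells. Cdh2 stood at 141.8 CPM (SD 76.6) and 156.8 CPM (SD 29.6) in pericytes. Cdh13 stood at 46.9 CPM (SD 13.9) and 38.9 CPM (SD 13.5) in endothelium. Committed oligodendrocyte precursors held 118.4 CPM (SD 49.7) and 120.5 CPM (SD 30.8) of Cdh20, and 363.6 CPM (SD 59.3) and 380.1 CPM (SD 88.7) of Pcdh7. Striatal ependymal cells held 126.1 CPM (SD 22.8) of Pcdh10 and 107.3 CPM (SD 39.8) of Cdh2.

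Levels in striatal interneurons and eccentric spiny neurons were not tested either, and some of them were matched in cortical types. Cholinergic interneurons (230 cells), which release acetylcholine over wide territories, held 863.5 CPM (SD 93.7) of Cntn1 and 527.1 CPM (SD 110.5) of Cdh13, but 2.26 CPM (SD 1.86) of Lrrtm1 and 7.78 CPM (SD 8.76) of Pcdh7. Striatal parvalbumin interneurons (484 cells) held 201.1 CPM (SD 31.6) of Pcdh15, 126.2 CPM (SD 29.5) of Pcdh8 and 123.1 CPM (SD 40.5) of Cntnap4. Cortical parvalbumin interneurons held a mean of 115.9 CPM of Cntnap4, and cortical Vip interneurons 130 CPM of Pcdh8. Eccentric spiny neurons (944 cells, 4 to 269 per pool) held 398.4 CPM (SD 65.2) of Pcdh7. The striatal class named neuroblast or progenitor, which includes clusters led by genes of dividing cells such as Top2a and Mki67, held 573.5 CPM (SD 209.7) of Nrxn3 and 179.5 CPM (SD 76.4) of Cdh2.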
